A study of Mus musculus with 20 samples.

Results

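The nuclear genes of respiratory complex I were described in the livers of 20 mice. Members were the genes whose symbol begins with Ndufa, Ndufb, Ndufc, Ndufs, Ndufv or Ndufaf, with symbols containing -ps left out, and 45 of the 45306 genes in the expression table met this rule. By role, the members were 7 core subunits, 4 accessory subunits named Ndufs or Ndufv, 13 named Ndufa, 10 named Ndufb, 2 named Ndufc, 7 assembly factors named Ndufaf, and the pair Ndufa4 and Ndufa4l2, whose proteins are known from complex IV. The rule used only names and no measured value, so genes of the complex that the table lists under older symbols, such as Ndufaf8, were not members.

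The mice formed 4 groups of 5, with 1 library of liver RNA per mouse. Control mice were wild-type C57BL/6 mice kept at room temperature, and CE mice were wild-type mice exposed to cold at 4 °C for 3 h per day over 3 weeks. The Sirt2-/- mice carried a deletion in Sirt2, made in fertilized eggs on the C57BL/6 background and present in the whole body, so an effect in liver cells and an effect on the liver from other organs cannot be told apart. The Sirt2-/-/CE mice carried the same deletion and received the same cold exposure. The mice were 5 weeks old at the start of the exposure. The labels give no sex, litter, cage, extraction or sequencing batch for a mouse. The question was how the transcripts of complex I stood after cold exposure, after loss of Sirt2 and after both, because the study blotted the complex I protein NDUFB8 in these groups. From its blots the study reports higher respiratory complex proteins in the CE and Sirt2-/- groups. The values here are of RNA and do not measure protein.

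Complex I is the NADH dehydrogenase of the mitochondrial inner membrane and the largest enzyme of the respiratory chain. It takes electrons from NADH in a matrix arm, passes them along iron-sulfur clusters to ubiquinone, and uses the energy to pump protons through a membrane arm. The catalytic core of the membrane arm is encoded in mitochondrial DNA, while the core of the matrix arm, the accessory subunits around both arms and the assembly factors that build them are encoded in the nucleus. In hepatocytes, which are rich in mitochondria, the complex reoxidizes the NADH made by fatty acid oxidation and the citric acid cycle.

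The promoters are shown first because nuclear respiratory genes are known targets of NRF1 and YY1, and the letters of their motifs stood in different members. Promoter sequences from RefSeq (GRCm38.p6), running from 250 bases before to 50 bases after a transcript start, matched 39 of the 45 members. The NRF1 letters GCGCATGCG, searched on both strands, stood in the windows of 4 member genes, or 10.3%, against 3.85% of the 10385 other genes tested and 1.75% of all promoter windows of the same length. The 4 windows belong to Ndufa11, an accessory subunit of the membrane arm, Ndufa8, another accessory subunit, and the assembly factors Ndufaf4 and Ndufaf5. They are printed 5′ to 3′ on the strand of the gene, with the match on either strand in capitals. In 3 of them the 2 strands match at overlapping positions.
Ndufa11, chr17:56717682-56717731, plus strand: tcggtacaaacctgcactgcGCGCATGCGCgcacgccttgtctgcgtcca
Ndufa8, chr2:36049319-36049367, minus strand: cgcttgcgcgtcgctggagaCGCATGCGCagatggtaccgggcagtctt
Ndufaf4, chr4:24897950-24897999, plus strand: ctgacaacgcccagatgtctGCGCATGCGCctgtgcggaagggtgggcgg
Ndufaf5, chr2:140170652-140170681, plus strand: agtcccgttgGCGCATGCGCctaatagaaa

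The YY1 letters AAGATGGCG stood in the windows of 5 member genes, or 12.8%, against 3.29% of other genes tested and 1.4% of all promoter windows. These were 1 core subunit, Ndufs7, and the accessory subunits Ndufa9, Ndufc1, Ndufs4 and Ndufs6. In all 5 genes the letters lie on the strand of the gene, between 23 and 44 bases after the transcript start. They are printed in the same way, with the match in capitals.
Ndufs7, chr10:80249463-80249491, plus strand: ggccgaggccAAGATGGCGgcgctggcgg
Ndufs4, chr13:114388045-114388069, minus strand: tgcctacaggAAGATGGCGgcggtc
Ndufs6, chr13:73328433-73328459, minus strand: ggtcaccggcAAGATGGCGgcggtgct
Ndufa9, chr6:126849097-126849125, minus strand: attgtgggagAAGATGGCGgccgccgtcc
Ndufc1, chr3:51408915-51408943, minus strand: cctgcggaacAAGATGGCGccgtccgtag

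No member held both motifs. The ETS letters CCGGAAGT were found in 1 member gene, Ndufs3, or 2.56%, against 8.55% of other genes tested and 3.89% of all windows. The Sp1 letters GGGCGG were found in 20 member genes, or 51.3%, against 65.9% and 35.7%. The TATA letters TATAAA were found in 4 member genes, or 10.3%, against 9.33% and 13.6%, and the ERR letters TCAAGGTCA in 0 member genes against 0.337% and 0.423%. A match is a description of letters and not a binding site, and these shares were not tested.

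The libraries held 35499796 to 53917339 counts, of which the 45 members took 0.2157% to 0.3955%. All 5 hepatocyte markers were abundant, with a summed level of 40956 to 77635 FPKM (fragments scaled to gene length and to the mapped fragments of the library), while 3 muscle markers summed to at most 0.0639 FPKM and 3 adipocyte markers to at most 1.01 FPKM. The 3 pancreas markers summed to 0.251 to 1.84 FPKM in Control, 0.411 to 7.49 in CE, 0.192 to 8.1 in Sirt2-/- and 0.157 to 0.537 in Sirt2-/-/CE, and the 1 of them that passed the filter on low counts was highest in CE mouse 8 and Sirt2-/- mice 14 and 15. Sirt2 itself was at 21.3 ± 1 FPKM in Control, 23.2 ± 1.76 in CE, 12.1 ± 2.54 in Sirt2-/- and 11.3 ± 1.17 in Sirt2-/-/CE (mean ± SD, n = 5 each), and no knockout mouse reached a wild-type mouse. Reads of the gene thus remained in the knockout mice, and these values alone do not show a loss of function. The study reports the absence of the protein from blots of liver. Mice 14 and 16 stood apart in the share of counts from mitochondrially encoded genes, at 5.517% and 5.615% against 7.339% to 9.828% in the other mice. Mouse 16 also had the highest share of counts on cytosolic ribosomal protein genes, at 1.944% against 0.885% to 1.41% in the others. The values of both mice are named with the results they touch.

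The members spanned a wide range of levels in liver, and the median of the assembly factors was below that of each class of subunits. By mean FPKM over the 20 mice, a level scaled to gene length, the median was 79.3 for the core subunits, 47.8 for the Ndufs and Ndufv accessory subunits, 52.3 for Ndufa, 62.1 for Ndufb, 29.4 for Ndufc and 9.67 for the assembly factors. Ndufa4 led all members at 318 FPKM and was above the next, Ndufb9 at 175 FPKM, in 20 of 20 mice. Ndufb9 was above Ndufa6 in 18 of 20 mice, and Ndufb10 was above Ndufs3 in 20 of 20. Ndufs3 and Ndufb8 could not be ordered, with the former higher in 13 of 20 mice and the latter in the others. At the low end stood Ndufaf5 at 3.29 FPKM and Ndufa4l2 at 1.05 FPKM, the latter with 22 to 84 counts per library, so its values are the least precise of the members.

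Within classes the lowest and highest members differed severalfold in FPKM. Ndufs4, an accessory subunit of the NADH-oxidizing tip, was at 27.6, 25.8, 24.7, 26.4 and 33.2 FPKM in Control, 22.9, 25.02, 25.4, 24.3 and 23.1 in CE, 24.7, 24.7, 24.3, 31.7 and 19.4 in Sirt2-/- and 43.6, 22.2, 23.5, 25.2 and 34.2 in Sirt2-/-/CE. Ndufs5, an accessory subunit of the membrane arm that faces the intermembrane space, was at 69.1, 63.6, 44.5, 66 and 73.8 FPKM in Control, 67.3, 63.6, 65.8, 59.05 and 59.8 in CE, 58.2, 58.4, 59.4, 61.7 and 40.8 in Sirt2-/- and 107, 51.7, 59.7, 67.5 and 91.5 in Sirt2-/-/CE. Both were lowest in mouse 15 among the Sirt2-/- mice, the last value of that group, and highest in mouse 16, the first value of the Sirt2-/-/CE group. Among the Ndufa subunits, Ndufa11, of the membrane arm, was the lowest, at 13.7, 11.9, 11.8, 12.9 and 14.3 FPKM in Control, 13.8, 13.01, 14.8, 11.2 and 11.5 in CE, 13.1, 11.8, 11.99, 17.3 and 10.4 in Sirt2-/- and 24.2, 12, 10.5, 13.2 and 17.6 in Sirt2-/-/CE. Ndufa6, which holds an acyl carrier protein on the matrix arm, was the highest, at 185, 141, 118, 143 and 136 FPKM in Control, 133, 139, 147, 114 and 116 in CE, 129.9, 118, 130.1, 146 and 106 in Sirt2-/- and 216, 119, 116, 137 and 209 in Sirt2-/-/CE. Mice 16 and 20, the first and last of the Sirt2-/-/CE group, were again above the other mice of their group for both genes. The low rank of Ndufa11 holds for FPKM only. Its 1060 to 2958 counts per library were close to the 1059 to 3004 of Ndufa7, which averaged 76.3 FPKM. The coding transcripts of the 2 genes are 545 and 528 bases long, so the order by FPKM depends on the gene lengths used in the deposited values.

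Among the Ndufb subunits of the membrane arm, Ndufb2 was the lowest, at 15.5, 16.2, 14.6, 15.2 and 23.1 FPKM in Control, 15.3, 16.99, 18.8, 15.8 and 17.2 in CE, 24.6, 23.6, 14.96, 17.1 and 9.96 in Sirt2-/- and 30.9, 14.6, 17.5, 20.02 and 21.5 in Sirt2-/-/CE. Ndufb9, which holds the other acyl carrier protein of the complex, was the highest, at 184, 175, 149, 166 and 189 FPKM in Control, 160.0, 166, 168, 145 and 152 in CE, 166, 156, 161, 244 and 149 in Sirt2-/- and 296, 156, 144, 162 and 209 in Sirt2-/-/CE. Mouse 14, the fourth of the Sirt2-/- group, stood far above its group for Ndufb9 but not for Ndufb2, and reads of Ndufb9 share 19.5% of their exon bases with the overlapping gene Gm49356. Ndufc1, a small membrane-arm subunit, was at 10.6, 10.4, 8.32, 10.7 and 12 FPKM in Control, 10.3, 9.96, 9.89, 8.89 and 8.41 in CE, 11.7, 8.13, 10.1, 12.3 and 6.96 in Sirt2-/- and 19.1, 9.599, 8.13, 10.1 and 15.01 in Sirt2-/-/CE. Of the assembly factors, Ndufaf1, which helps build the membrane arm, was at 13.4, 12.5, 12.8, 12.8 and 14.9 FPKM in Control, 11.4, 11.6, 12.4, 15.3 and 13.96 in CE, 12.4, 14.4, 15.4, 18.4 and 16.1 in Sirt2-/- and 14.9, 12.9, 14.4, 14.3 and 12.8 in Sirt2-/-/CE. For Ndufaf1 mouse 14 was the highest mouse and mouse 16 was within the range of the others. Ndufaf5, which modifies the core subunit Ndufs7, was at 1.81, 3.23, 3.099, 3.63 and 3.297 FPKM in Control, 4.15, 3.03, 2.52, 2.46 and 3.83 in CE, 2.48, 2.75, 2.73, 4.21 and 3.66 in Sirt2-/- and 4.55, 2.96, 3.65, 2.66 and 5.101 in Sirt2-/-/CE, with groups that overlap throughout.

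**Figure D1:**
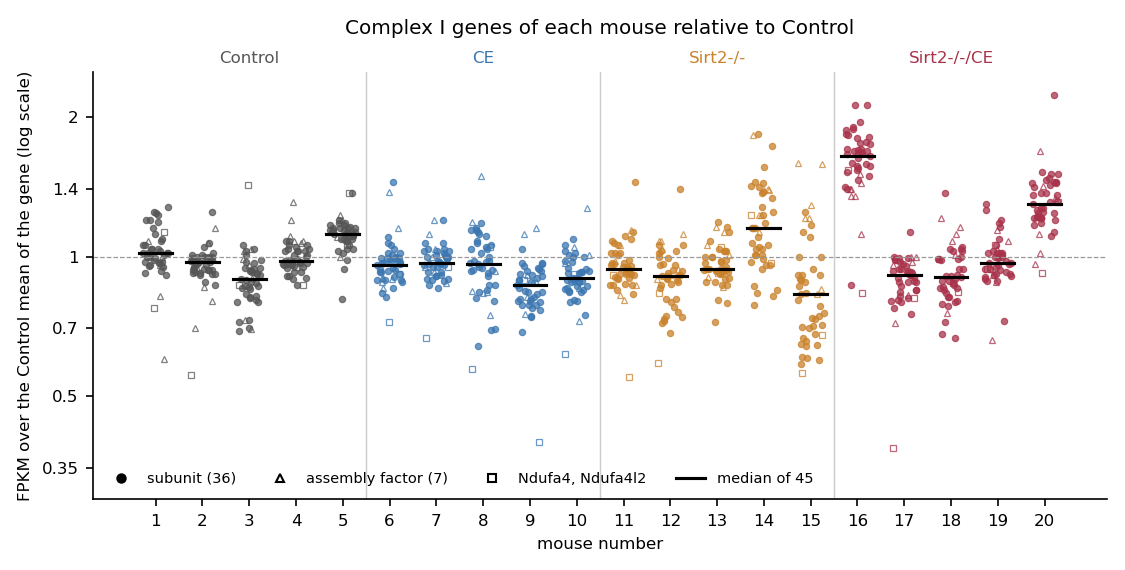
Ratio of each of the 45 members' FPKM to its mean in the 5 Control mice, on a log axis, with 1 column of points per mouse, colours for the 4 groups and a bar for the median of the members (circles are subunits, triangles assembly factors, squares Ndufa4 and Ndufa4l2). In mouse 16 of the Sirt2-/-/CE group the median ratio is 1.65 and in mouse 20 it is 1.3, while mice 17, 18 and 19 of the same group have medians of 0.912, 0.902 and 0.969.

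None of the 45 members differed between groups in any of the 4 comparisons or in the interaction of genotype and cold at an adjusted p under 0.05 (edgeR's quasi-likelihood test with Benjamini-Hochberg adjustment over 15616 genes), and none did with DESeq2, limma voom or limma on log2 FPKM. All 45 passed the filter on low counts. What the data hold is therefore a set of directions, sizes and mouse-to-mouse spreads, given here with unadjusted counts beside the same counts over all genes. In such bulk samples fewer cells of a type and less RNA per cell cannot be told apart. Comparisons that share a group of mice, such as both against Control or both involving Sirt2-/-, are not independent of each other.

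Cold exposure of wild-type mice went with small differences in the members. In CE against Control, 34 of 45 members were lower and 11 higher, with a median log2 fold change of -0.06 beside -0.01 over all genes tested. The directions moved with single mice, with 26 members lower without CE mouse 9, 28 without Control mouse 5 and 41 without CE mouse 8, where the medians were -0.03, -0.04 and -0.13. The test called 0 members where it called 0.0064% of all genes, and 1 member, Ndufa4l2, was lower at an unadjusted p under 0.05 where 5.22% of all genes were. The lowest adjusted p of a member was 0.465. All 10 Ndufb subunits were lower, at -0.19 to -0.003 on the log2 scale, while of the 13 Ndufa subunits 6 were higher and 7 lower. All 4 endothelial markers were lower too, with a median of -0.70 and 1 at an unadjusted p under 0.05, as were 3 of 4 stellate markers, with a median of -0.61 and 0 at that p, and their part in the members' values was not tested. No member separated the groups in FPKM, which 2.62% of all genes did in one direction or the other.

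Loss of Sirt2 at room temperature went with lower values of most subunits, within the spread of the mice. In Sirt2-/- against Control, 39 of 45 members were lower, with a median log2 fold change of -0.19 beside 0.02 over all genes. With limma on log2 FPKM 28 were lower and with library size alone 30, with medians of -0.05 in both. The test called 0 members and 0.89% of all genes. Ndufv3 and Ndufc2 were lower at an unadjusted p under 0.05, so 2 of 45 members were, beside 6.78% of all genes, a share near the background. Ndufc2 was also the member that separated the groups in FPKM, which 4.69% of all genes did. The count at that p moved with single mice, being 0 without mouse 15 and 1 without Control mouse 5, where 4.83% and 6.76% of all genes were lower. Without mice 14 and 16, the libraries with the lowest mitochondrial share, there were 15, all lower, beside 7.76% of all genes lower at that p in the same fit, and the members' median was -0.28. Of the markers, 1 of 5 hepatocyte and 1 of 3 erythroid markers were lower at an unadjusted p under 0.05, and their part was not tested.

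Cold exposure of knockout mice went with higher values of nearly all members. Against the Sirt2-/- group, 42 of 45 members and all 36 core and accessory subunits were higher in Sirt2-/-/CE, with a median log2 fold change of 0.37 for the members beside 0.01 over all genes. The test called 0 members and 0% of all genes, and the lowest adjusted p of a member was 0.503. At an unadjusted p under 0.05, 20 members were higher and 0 lower, or 20 of 45 where 3.96% of all genes were higher. No member separated the groups in FPKM, beside 0.929% of all genes. The count rested on a few mice. It was 2 higher and 1 lower without mouse 16, where 2.69% of all genes were higher at that p and the members' median was 0.18. Without mouse 15 it was 6 higher, beside 2.23% of all genes, and without mouse 20 it was 10 higher, beside 2.57%. With limma voom and quality weights the median was 0.14. The tested pancreas marker, which was high in mice 14 and 15, was lower in Sirt2-/-/CE at -2.82 on the log2 scale (unadjusted p 0.00673, adjusted p 0.559 in edgeR's test). Of 5 hepatocyte markers 1 was higher at an unadjusted p under 0.05, and all 3 erythroid markers were higher, with a median of 0.51 and 0 at that p. The part of these markers in the members' values was not tested.

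Between the 2 cold-exposed groups the members differed by less than their spread. Relative to CE, 43 of 45 members were higher in Sirt2-/-/CE with a median log2 fold change of 0.23 beside 0.02 over all genes, yet 0 reached an unadjusted p under 0.05, which 6.09% of all genes did. The test called 0 members and 0.0128% of all genes, with a lowest adjusted p of 0.838 for a member, and no member separated the groups, beside 1.56% of all genes. Without mouse 16 the median was 0.04, and under limma voom with quality weights, 27 of 45 members were lower with a median of -0.03. Counts at an unadjusted p under 0.05 were 7 without mouse 17, 7 without mouse 18, 4 without mouse 19 and 1 without CE mouse 8, all of higher members. In these fits 3.8%, 4.37%, 4.24% and 3% of all genes were higher at that p. In this comparison all 4 endothelial markers were higher at an unadjusted p under 0.05, with a median of 1.25. The tested pancreas marker was lower, at -2.61 (unadjusted p 0.0108) and at -1.04 without CE mouse 8. Of 4 Kupffer cell and leukocyte markers and of 4 stellate markers 1 each was higher at that p, and of 5 hepatocyte and of 4 cholangiocyte markers 1 each was lower. The part of these markers in the members' values was not tested.

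The interaction asks whether the response to cold differed between genotypes. It was positive for 43 of 45 members, with a median of 0.42 on the log2 scale beside 0.002 over all genes, so that most members were lower after cold in wild-type mice and higher after cold in knockout mice. The test called 0 members and 0% of all genes, with a lowest adjusted p of 0.43. At an unadjusted p under 0.05 the interaction was positive for 10 members and negative for 0, beside 4.73% of all genes with a positive one. The count was 2 without mouse 16, and 3 without each of Control mouse 5, CE mouse 9, Sirt2-/- mouse 15 and Sirt2-/-/CE mouse 20. It was 4 without Control mouse 4, 5 without each of CE mouse 6, CE mouse 10 and Sirt2-/- mouse 12, and 16, 20 and 18 without Control mouse 3, Sirt2-/-/CE mouse 17 and Sirt2-/-/CE mouse 18. In these fits 3.34% to 5.72% of all genes had a positive interaction at that p. With limma voom and quality weights the median was 0.21. The interaction of the tested pancreas marker was -4.23 (unadjusted p 0.00349, adjusted p 0.395 in edgeR's test) and -2.66 without CE mouse 8. It was positive for all 4 endothelial markers, with a median of 0.92, and all 3 erythroid markers, with a median of 0.81, 0 of them at an unadjusted p under 0.05. Of 5 hepatocyte markers 1 had a positive interaction at that p. The part of these markers was not tested either.

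**Figure D2:**
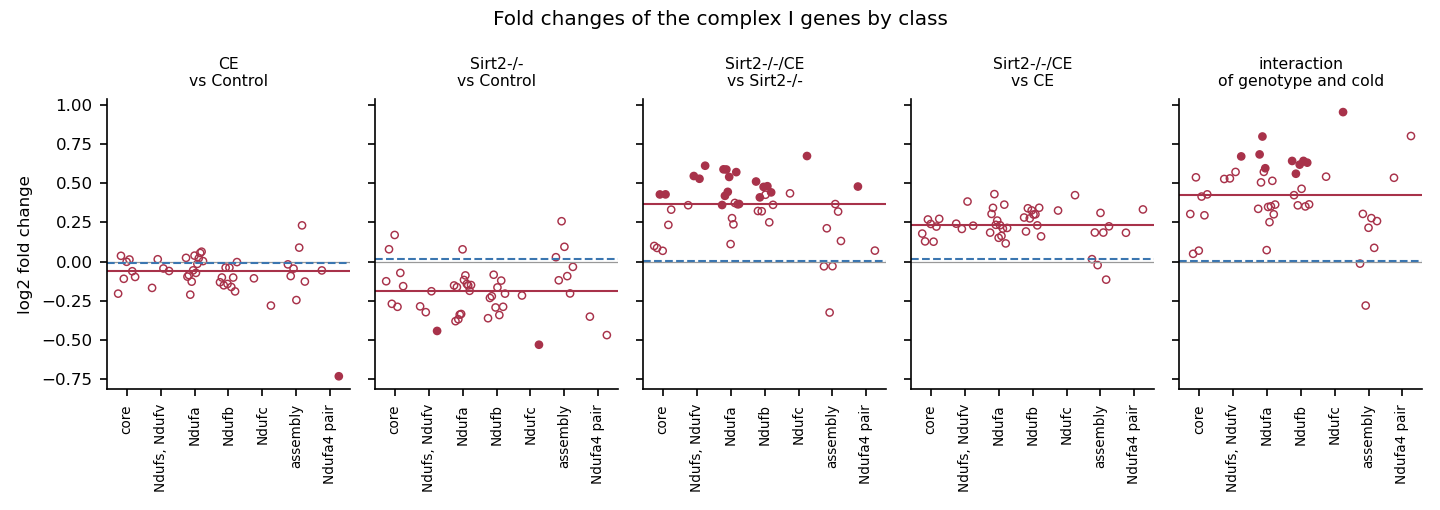
Log2 fold change of each member in the 4 comparisons and the interaction, 1 panel for each, with members in columns by class. Filled points have an unadjusted p under 0.05, the solid line is the median of the 45 members and the dashed line the median of all genes tested. In the panel of Sirt2-/-/CE against Sirt2-/- all 36 core and accessory subunits lie above 0, at 0.07 to 0.67, and the 7 assembly factors spread from -0.32 to 0.37.

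Ndufb8, a membrane-arm subunit whose protein is a common marker of complex I on blots, lies at chr19:44548572-44555440 (GRCm38, minus strand, 6 exon blocks). Its levels were 92.9, 86.5, 87.7, 77.4 and 101 FPKM in Control, 79.2, 76.2, 72.5, 66.1 and 79.8 in CE, 84.6, 64.7, 70.8, 92.3 and 57.1 in Sirt2-/- and 149, 78.4, 76.3, 78.97 and 109 in Sirt2-/-/CE. Mouse 16, at 149 FPKM, and mouse 20, at 109 FPKM, lay above all Control mice, while the other 3 mice of their group lay between 76.3 and 79.0, inside the range of the Sirt2-/- mice. The group means were 89.1 ± 8.69, 74.8 ± 5.64, 73.9 ± 14.4 and 98.3 ± 31.3 FPKM (mean ± SD, n = 5). The log2 fold change was -0.16 (SE 0.18) in CE against Control, -0.34 (SE 0.18) in Sirt2-/- against Control, 0.48 (SE 0.18) in Sirt2-/-/CE against Sirt2-/- and 0.30 (SE 0.18) in Sirt2-/-/CE against CE. Without mouse 16 the last of these was 0.09. The highest of them had an adjusted p of 0.585 in edgeR's test, a 95% interval of 0.10 to 0.86, and a value of 0.27 without mouse 16. Its interaction was 0.64 (SE 0.25) with an adjusted p of 0.513 (edgeR, Benjamini-Hochberg).

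The core subunits form the part of the matrix arm that takes electrons from NADH to ubiquinone. Ndufv1 binds the flavin that accepts electrons from NADH, and lies at chr19:4007384-4012806. It was at 74.99, 76.9, 71.3, 70.7 and 88.1 FPKM in Control, 73.8, 74.8, 74.1, 69.6 and 71.02 in CE, 66.3, 71.04, 76.5, 111 and 76.5 in Sirt2-/- and 116, 76, 76.2, 73.2 and 96.9 in Sirt2-/-/CE. Ndufv2, which holds an iron-sulfur cluster beside it (chr17:66078638-66101559), was at 46.4, 43.8, 43.7, 45.5 and 54.5 FPKM in Control, 45.5, 48.7, 44.3, 36.8 and 40.4 in CE, 42.9, 41.9, 45.5, 59.8 and 41.2 in Sirt2-/- and 84.1, 41.5, 38.3, 42.6 and 63.97 in Sirt2-/-/CE. For both genes mice 14, 16 and 20 stood above every other knockout mouse, and the remaining knockout mice lay within or just below the wild-type range. Ndufv1 had a log2 fold change of 0.23 (SE 0.17) and Ndufv2 of 0.33 (SE 0.21) in Sirt2-/-/CE against Sirt2-/-, and neither passed at an unadjusted p under 0.05. Without mouse 16 these were 0.06 and 0.07, and without mouse 14 they were 0.37 and 0.44.

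Ndufs1 is the large iron-sulfur subunit of the same module and the longest core transcript (chr1:63143596-63176833, 2590 bases). Its levels were 44.04, 48.7, 47.1, 40.5 and 46.5 FPKM in Control, 40.4, 40.1, 31.7, 44.03 and 38.9 in CE, 41.5, 48.1, 51.5, 37.9 and 51.3 in Sirt2-/- and 39.4, 51.2, 47.8, 43.8 and 51.1 in Sirt2-/-/CE. It went the other way from its partners in single mice, since mice 14 and 16 were its lowest knockout mice, at 37.9 and 39.4 FPKM. Among the core subunits it had the lowest unadjusted p in CE against Control, with a log2 fold change of -0.20 (SE 0.11) and an adjusted p of 0.541 (edgeR, Benjamini-Hochberg). Its log2 fold change in Sirt2-/-/CE against Sirt2-/- was 0.10 (SE 0.11), and ran from 0.04 without mouse 14 to 0.16 without mouse 13.

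Ndufs7 (chr10:80249121-80256794), which holds the last iron-sulfur cluster before ubiquinone, was at 78.05, 70.5, 72.9, 71.1 and 84.01 FPKM in Control, 76.5, 76.01, 84.6, 59.1 and 66.7 in CE, 83.3, 72.2, 87.7, 138 and 82.8 in Sirt2-/- and 142, 73.8, 68.6, 76.6 and 91.02 in Sirt2-/-/CE. As for Ndufv1, mouse 14 was about as high as mouse 16, with Ndufs7 at 138.5 and 141.8 FPKM in the 2 mice and at 59.1 to 91.0 FPKM in the other 18. The log2 fold change of Ndufs7 in Sirt2-/-/CE against Sirt2-/- was the smallest of the 36 subunits, at 0.07 (SE 0.22), and was below 0 without mouse 16, at -0.21. Scaling by library size alone gave -0.03.

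Ndufs3, a structural subunit of the matrix arm (chr2:90894634-90904827), was at 88.5, 86.8, 80.9, 85.1 and 94.9 FPKM in Control, 81.2, 86.7, 75.9, 73.1 and 80.8 in CE, 82.05, 74.7, 80.7, 101 and 61.7 in Sirt2-/- and 145, 78.4, 73.7, 80.9 and 119.6 in Sirt2-/-/CE. Ndufs8, which holds 2 iron-sulfur clusters at the junction of the arms (chr19:3908863-3912774), was at 59.6, 59.2, 60.7, 67.9 and 76.3 FPKM in Control, 62.9, 62.98, 65.01, 61.7 and 70.3 in CE, 56.3, 57.8, 60.3, 71.4 and 47.8 in Sirt2-/- and 103, 59.6, 63.9, 64.4 and 77.4 in Sirt2-/-/CE. These were the 2 core subunits at an unadjusted p under 0.05 in Sirt2-/-/CE against Sirt2-/-, with log2 fold changes of 0.43 (SE 0.20) and 0.43 (SE 0.17) and adjusted p of 0.671 and 0.598 in edgeR's test. Without mouse 16 the values were 0.21 and 0.23. The groups overlapped in both, since mice 17, 18 and 19 lay among the Sirt2-/- mice. Counts of Ndufs3 may be split with the processed pseudogene Gm12251, which took 2.76% to 4.88% of their joint counts.

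**Figure D3:**
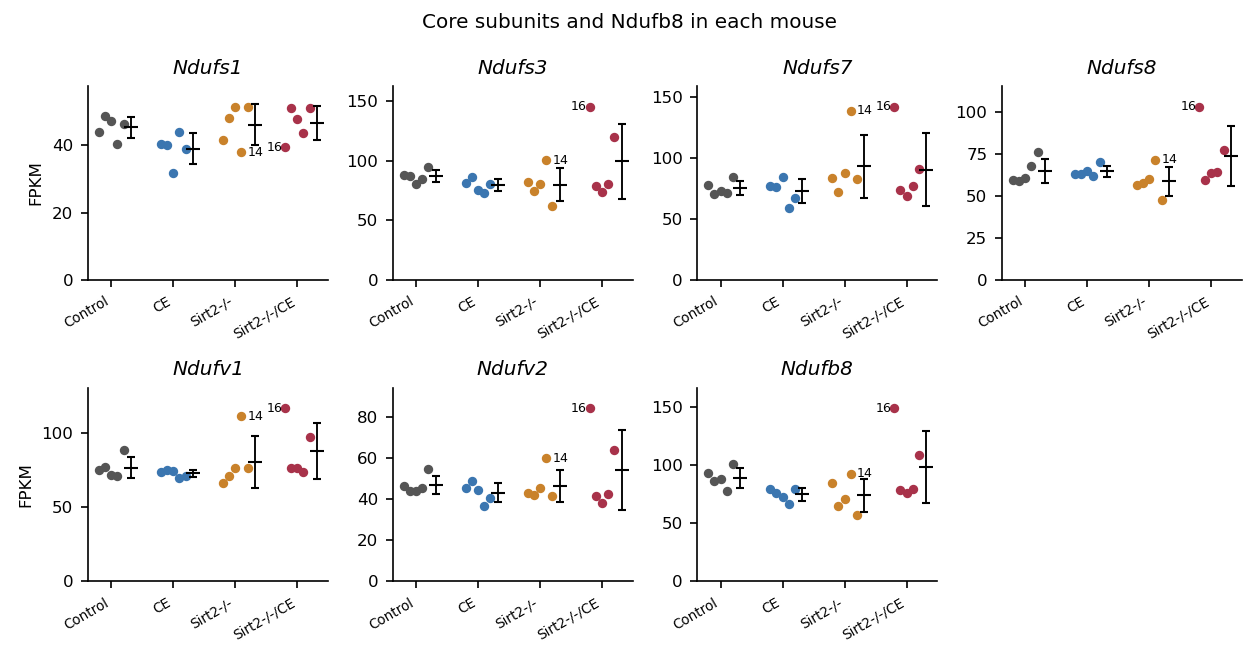
FPKM of 6 core subunits and of Ndufb8 in each of the 20 mice, 1 panel per gene, with points for mice in the order of their numbers and bars for the group mean ± SD (n = 5). Mice 14 and 16 are labelled, and mouse 16 is the highest in every panel but that of Ndufs1, where it is at 39.4 FPKM.

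The 4 accessory subunits named Ndufs or Ndufv were lower in Sirt2-/- than in Control in 4 of 4 cases and higher in Sirt2-/-/CE than in Sirt2-/- in 4 of 4, of which 3 at an unadjusted p under 0.05, beside 3.96% of all genes. Ndufv3, a small subunit bound to the NADH-oxidizing tip (chr17:31520115-31531331, plus strand), had the lowest unadjusted p of all members in both comparisons. Its levels were 46.9, 39.2, 29.6, 42.97 and 44.5 FPKM in Control, 38.3, 42, 39.6, 38.1 and 37.5 in CE, 41.5, 30.9, 40.6, 34.3 and 26.7 in Sirt2-/- and 67.2, 34.3, 36.6, 48.5 and 49.4 in Sirt2-/-/CE. The CE mice were tight, the Sirt2-/- mice reached down to 26.7 FPKM in mouse 15, and mice 16, 19 and 20 lay above all other mice. The log2 fold change was -0.44 (SE 0.17) in Sirt2-/- against Control, with an adjusted p of 0.222 in edgeR's test. In Sirt2-/-/CE against Sirt2-/- it was 0.61 (SE 0.17), or 1.53-fold, with a 95% interval of 0.25 to 0.97 and an adjusted p of 0.503 (edgeR, Benjamini-Hochberg). That value was less tied to mouse 16 than those of most members, being 0.46 without it at an unadjusted p of 0.00953. Its interaction was 0.67 (SE 0.24), with an adjusted p of 0.466 in edgeR's test. Ndufs5 followed with 0.55 (SE 0.20) in Sirt2-/-/CE against Sirt2-/- and 0.34 without mouse 16.

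The 13 Ndufa subunits, which include the acyl carrier protein Ndufab1, ranged from 0.11 to 0.59 in Sirt2-/-/CE against Sirt2-/-, with 13 of 13 higher and 8 at an unadjusted p under 0.05, beside 3.96% of all genes. Without mouse 16 only 2 of all 45 members were higher at that p. In Sirt2-/- against Control 12 of 13 were lower, with a median of -0.15. Ndufa6 was at 0.44 (SE 0.20) in Sirt2-/-/CE against Sirt2-/-, and at 0.27 without mouse 16. Ndufa3, a small membrane-arm subunit (chr7:3617373-3620327), had the lowest unadjusted p of the members in Sirt2-/-/CE against CE, with a log2 fold change of 0.34 (SE 0.17) and an adjusted p of 0.838 (edgeR, Benjamini-Hochberg). It was at 38.3, 28.3, 26.7, 31.4 and 36.3 FPKM in Control, 29.8, 32.1, 33.6, 26.1 and 26.98 in CE, 34.5, 32.7, 28.8, 32.6 and 29.4 in Sirt2-/- and 55.1, 30.7, 33.6, 40.6 and 38.8 in Sirt2-/-/CE, so mice 16, 19 and 20 lay above every CE mouse and mice 17 and 18 within the CE range. Without mouse 16 the log2 fold change was 0.14. Ndufa12 differed from the other Ndufa subunits in its mice, since CE mouse 6 and mice 16, 18 and 20 were high, but its counts are uncertain because the processed pseudogene Gm15920 took 17.2% to 44.3% of their joint counts.

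The 10 Ndufb subunits, which form much of the distal membrane arm, were lower in 10 of 10 cases in Sirt2-/- against Control in edgeR's fit, at -0.36 to -0.08. In mean FPKM, Ndufb2, Ndufb5, Ndufb7 and Ndufb9 were instead higher, at 18, 51.1, 70.4 and 175 in Sirt2-/- against 16.9, 49, 68.7 and 172 in Control. In Sirt2-/-/CE against Sirt2-/- 10 of 10 were higher, at 0.25 to 0.51, with 5 at an unadjusted p under 0.05, beside 3.96% of all genes. Without mouse 16 only 2 of all 45 members were higher at that p. The Ndufb subunits also held 5 of the 10 members with a positive interaction at that p, beside 4.73% of all genes, and without mouse 16 the count over all members was 2. Ndufb7, which lies on the intermembrane face of the arm, showed the largest ratio of mouse 16 to the Control mean, at 2.12. Ndufb4 may share reads with its near copy Ndufb4c, which took 8.84% to 22.7% of their joint counts.

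Both Ndufc subunits of the membrane arm were lower in Sirt2-/- than in Control. Ndufc2 (chr7:97400003-97407802, plus strand) was at 50.5, 47.9, 55.3, 47.3 and 59.1 FPKM in Control, 45.8, 48.2, 36.1, 40.2 and 41.8 in CE, 43.3, 38.1, 45.2, 40.8 and 31.5 in Sirt2-/- and 86.5, 47.8, 35.4, 45.99 and 78.6 in Sirt2-/-/CE. All 5 Sirt2-/- mice lay below the lowest Control mouse, whereas the Sirt2-/-/CE mice ran from below the Sirt2-/- median to far above every Control mouse. The log2 fold change was -0.53 (SE 0.22) in Sirt2-/- against Control, with an adjusted p of 0.254 in edgeR's test. It was 0.67 (SE 0.22), or 1.59-fold, in Sirt2-/-/CE against Sirt2-/-, with an adjusted p of 0.559 (edgeR, Benjamini-Hochberg), and 0.45 without mouse 16. Its interaction of 0.95 (SE 0.31), with a 95% interval of 0.31 to 1.60 and an adjusted p of 0.43 in the same test, had the lowest unadjusted p of the members.

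Of the 7 assembly factors, 4 were higher and 3 lower in Sirt2-/-/CE against Sirt2-/-, 0 of them at an unadjusted p under 0.05, with a median of 0.13. Their mean centred log2 CPM was highest in mouse 16, at 0.513, mouse 20, at 0.302, and mouse 14, at 0.296. Ndufaf3, which acts with Ndufaf4 on the ubiquinone module (chr9:108565537-108567434), was at 6.11, 4.904, 6.04, 6.801 and 6.74 FPKM in Control, 5.401, 5.81, 7.29, 5.403 and 5.22 in CE, 6.998, 6.37, 6.49, 11.2 and 9.71 in Sirt2-/- and 8.29, 4.4, 4.63, 5.74 and 6.88 in Sirt2-/-/CE. Its 2 highest mice of 20 were Sirt2-/- mice 14 and 15, and mouse 15 was the lowest of 20 for 18 other members. Of the exon bases of Ndufaf3 2.64% are shared with Impdh2 on the other strand, which had more counts, 22496 over all libraries against 8393 of Ndufaf3. The counts of Ndufaf3 are therefore uncertain. The log2 fold change was 0.26 (SE 0.21) in Sirt2-/- against Control and -0.32 (SE 0.21) in Sirt2-/-/CE against Sirt2-/-, the lowest of the members there, with an adjusted p of 0.803 in edgeR's test. Without mouse 14 these were 0.13 and -0.20, and without mouse 16 the latter was -0.51. Its interaction was -0.28 (SE 0.30), and ran from -0.47 without mouse 16 to -0.14 without CE mouse 8.

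Ndufaf6, an early assembly factor (chr4:11051045-11076205), had the lowest unadjusted p among the members higher in CE than in Control, with a log2 fold change of 0.23 (SE 0.21) and an adjusted p of 0.762 (edgeR, Benjamini-Hochberg). It was at 9.35, 6.84, 8.76, 12.8 and 11.04 FPKM in Control, 11.2, 10.2, 14.5, 10.9 and 9.88 in CE, 7.86, 8.74, 9.86, 12.04 and 8.09 in Sirt2-/- and 13.7, 9.77, 9.63, 8.89 and 13.03 in Sirt2-/-/CE, with groups that overlapped. The difference was 0.08 without CE mouse 8, 0.13 without Control mouse 2 and 0.37 without Control mouse 4. Relative to CE it was 1 of the 2 members lower in Sirt2-/-/CE, at -0.11 (SE 0.21). Counts of Ndufaf2 and Ndufaf7 are uncertain, as 65.6% of the exon bases of Ndufaf2 are shared with a gene on the other strand and Ndufaf7 shares a near-identical stretch with other genes.

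Ndufa4 and Ndufa4l2 behaved unlike each other in level. Ndufa4 (chr6:11900292-11907497) was at 366, 322, 281, 308 and 343 FPKM in Control, 297, 307, 342, 288 and 296 in CE, 296, 271, 299, 314 and 220.0 in Sirt2-/- and 498, 264, 284, 345 and 426 in Sirt2-/-/CE. Like the subunits it had mice 16 and 20 on top, with a log2 fold change of 0.48 (SE 0.18) in Sirt2-/-/CE against Sirt2-/- and an adjusted p of 0.586 (edgeR, Benjamini-Hochberg), 0.30 without mouse 16, and -0.35 (SE 0.18) in Sirt2-/- against Control. Ndufa4l2 (chr10:127514967-127517154), a paralog known to be induced by hypoxia, was at 1.02, 0.732, 1.88, 1.15 and 1.81 FPKM in Control, 0.9503, 0.877, 0.753, 0.526 and 0.815 in CE, 0.726, 0.779, 1.39, 1.62 and 0.741 in Sirt2-/- and 1.1, 0.5101, 1.11, 1.24 and 1.21 in Sirt2-/-/CE. In CE against Control its log2 fold change was -0.73 (SE 0.35) with an adjusted p of 0.465 in edgeR's test, and the groups overlapped because 1 Control mouse lay at 0.732 FPKM. Of its exon bases 2.92% are shared with the far more abundant Shmt2 on the other strand, so its few counts are uncertain.

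Other genes of the pathway were counted from lists. Of the 43 tested nuclear subunits of complexes II to V, 41 were higher in Sirt2-/-/CE than in Sirt2-/-, 25 at an unadjusted p under 0.05, with a median of 0.40, beside 0.41 for the 36 complex I subunits. Without mouse 16 these medians were 0.21 and 0.19, with 7 of the 43 and 2 of the 36 higher at that p. All 76 cytosolic ribosomal protein genes were higher too, 21 at that p, with a median of 0.37, but without mouse 16 only 55 of the 76 were higher, 1 at that p, with a median of 0.08. The 7 mitochondrially encoded subunits of complex I had a median of 0.02, with 5 higher, 2 lower and 1, mt-Nd3, at an unadjusted p under 0.05. The mitochondrial median moved with single mice, from -0.14 without mouse 14 to 0.20 without mouse 16. The latter fit kept mouse 14 in the Sirt2-/- group, where its mean centred log2 CPM on this list was the lowest of the 20 mice, at -1.091. The 0.20 is therefore not set against the median of the nuclear subunits. Among 8 assembly factors of other names the median was -0.02, with 1, the iron-sulfur carrier Nubpl, at an unadjusted p under 0.05 and a log2 fold change of 0.52.

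Of 10 regulators of mitochondrial genes, 8 were lower in Sirt2-/-/CE than in Sirt2-/-, with a median of -0.19. The 2 at an unadjusted p under 0.05 were the partners Gabpa, at -0.61, and Gabpb1, at -0.73, which together form the ETS-family factor NRF2. At that p 3.29% of all genes were lower, and neither passed the adjusted test. Nrf1 was at -0.20, Yy1 at 0.01, Esrra at -0.01 and the coactivator Ppargc1a at -0.19, none at that p. The regulators' mean centred log2 CPM was lowest in mice 16, 20 and 14, at -0.327, -0.265 and -0.203. In mice 17, 18 and 19 of the Sirt2-/-/CE group it was 0.016, 0.054 and -0.011, so the lower values of that group lay mainly in mice 16 and 20. In Sirt2-/- against Control the same 43 subunits of complexes II to V had a median of -0.28, with 40 lower and 6 lower at an unadjusted p under 0.05, beside 6.78% of all genes. The 7 mitochondrially encoded subunits were lower in 7 of 7 there, with a median of -0.24. This rested on mouse 14, without which 5 of 7 were lower with a median of -0.07.

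The members varied together from mouse to mouse. On a score, the mean over the 45 members of log2 CPM (counts scaled to library size with TMM factors) after subtracting that member's average of all 20 mice, the groups stood at 0.045 ± 0.106 in Control, -0.034 ± 0.14 in CE, -0.151 ± 0.203 in Sirt2-/- and 0.14 ± 0.457 in Sirt2-/-/CE (mean ± SD, n = 5). The SD of the Sirt2-/-/CE group was the largest, because mouse 16 was at 0.79 and mouse 20 at 0.436 while mice 17, 18 and 19 were at -0.275, -0.2 and -0.052. Mouse 16 was the highest of the 20 mice in 35 of 45 members and mouse 15, of the Sirt2-/- group at -0.419, the lowest in 18.

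Across the 20 mice each member was correlated with the mean of the other members, as a description over mice that share their library's depth and scaling. The median r was 0.912 for all members, 0.923 for the 36 subunits and 0.579 for the assembly factors, and 0.783 for all members without mice 16 and 20. Ndufs1 was the exception among the subunits, with r of 0.027. In other lists mouse 16 was also high, at 0.82 for the subunits of complexes II to V and at 1.006 for the ribosomal protein genes, and low at -0.88 for the mitochondrially encoded complex I subunits. Mouse 14 was low on the last list as well, at -1.091, but at 0.125 on the members.

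**Figure D4:**
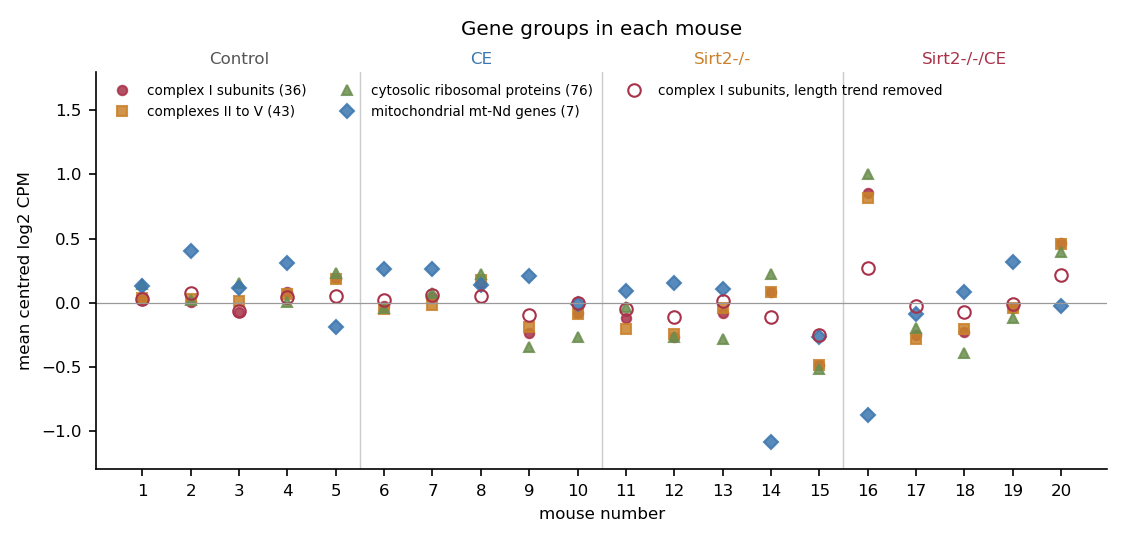
Mean centred log2 CPM of 4 gene lists in each of the 20 mice, with mice on the horizontal axis, the groups marked and open circles for the complex I subunits with the length trend removed. Mouse 16 is at 0.858 for the 36 complex I subunits, 0.82 for complexes II to V and 1.006 for ribosomal protein genes, and mice 14 and 16 are the lowest for the 7 mitochondrially encoded complex I subunits, at -1.091 and -0.88.

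The members are short transcripts, and transcript length moved with these differences. The median length was 861 bases for the members and 2728.5 bases for the 13224 tested genes with a coding transcript, and among the classes 590 bases for Ndufa, 718 for Ndufb, 1451 for the assembly factors and 1623 for the core subunits. Between Sirt2-/- and Sirt2-/-/CE, the 1024 other genes shorter than 1000 bases had a median log2 fold change of 0.20, beside 0.44 for the 27 members of that length. From 1000 to 2000 bases, 3197 other genes had a median of 0.06 and 15 members a median of 0.32, and the 3625 genes of 4000 bases or more had a median of -0.03. The members were thus above other genes of their length in both bins, and the step between bins ran the same way in members and others.

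In mouse 16 the short genes that are not members had a median centred log2 CPM of 0.723 and the long ones -0.543, and in mouse 14 these were 0.254 and -0.382. When a smooth trend of log2 CPM on length was removed from each library, the members' score was 0.228 in mouse 16, 0.207 in mouse 20, -0.073 in mouse 14 and -0.205 in mouse 15. The members' median in Sirt2-/-/CE against Sirt2-/- was then 0.18 rather than 0.36 over the same coding genes, with 40 of 45 higher and 13 at an unadjusted p under 0.05, of which 1, Ndufaf3 at -0.40, was lower. In that fit 3.65% of all genes were higher and 4.58% lower at that p. Ndufv3 kept the lowest unadjusted p, with a log2 fold change of 0.54 and an adjusted p of 0.438 (edgeR, Benjamini-Hochberg). Other members moved more from the fit of coding genes to the fit without the trend. In the same comparison Ndufb8 went from 0.467 to 0.232, Ndufs5 from 0.532 to 0.238, Ndufa6 from 0.431 to 0.164, Ndufa4 from 0.465 to 0.156, Ndufs8 from 0.415 to 0.225, Ndufs3 from 0.414 to 0.269 and Ndufc2 from 0.659 to 0.397. The interaction of Ndufb8 went from 0.613 to 0.337 and that of Ndufc2 from 0.923 to 0.615. Against CE, Ndufa3 went from 0.309 to 0.127 and Ndufb8 from 0.269 to 0.102, and in Sirt2-/- against Control Ndufa4 went from -0.355 to -0.171. The median was then 0.08 in Sirt2-/-/CE against CE, 0.17 in the interaction and -0.15 in Sirt2-/- against Control. In CE against Control it was -0.02, with 20 members higher and 25 lower. The source of the length trend was not tested.

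**Figure D5:**
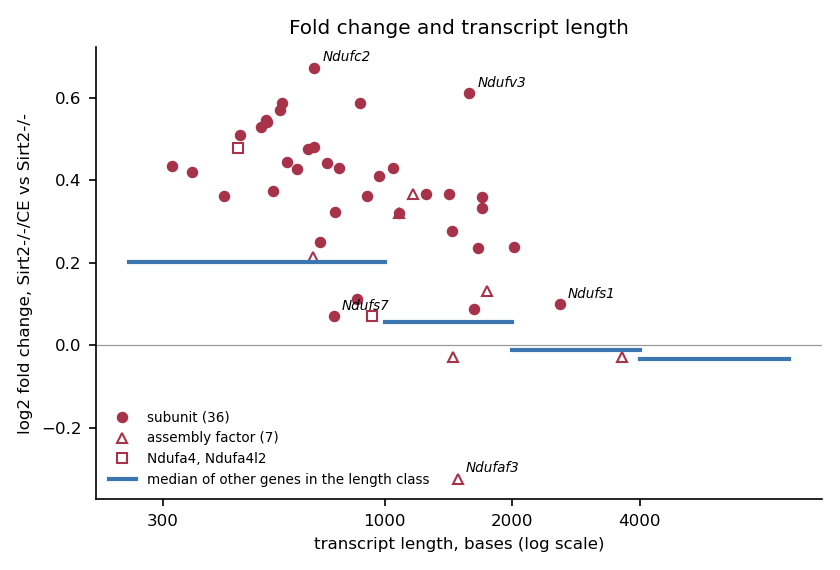
Log2 fold change of the 45 members in Sirt2-/-/CE against Sirt2-/-, plotted against transcript length in bases on a log axis, with bars for the median of the other tested coding genes in 4 classes of length. The bars step down from 0.20 below 1000 bases to -0.03 at 4000 bases or more, and the medians of the members from 0.44 to 0.10 over the 3 classes that hold members.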

How the data were processed

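Liver RNA of 20 mice was sequenced after oligo(dT) enrichment, with cDNA primed by random hexamers. The authors deposited a single table, with a whole-number read count without normalization and an FPKM value, scaled to gene length and depth, in every mouse. The submitters' processing notes name mm10 (GRCm38). The aligner, the counting tool, its strand setting and its rule for reads with several matches are not given in the sources used here. Of the table's lines, 9 hold no gene and were left out.

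Deposited counts were fitted in R 4.3.3 with edgeR 4.0.16 (TMM scaling, filterByExpr min.count 10, min.total.count 15, quasi-likelihood test) in 1 model of all 20 libraries and 4 groups. P-values were adjusted over 15616 genes, and the threshold was 0.05. Library depth was 35499796 to 53917339 counts, and precision depended on it and on how far mice of a group differed. Alternatives used DESeq2 1.42.0 and limma 3.58.1, on log2(FPKM + 1) where the deposited FPKM values were tested, other scalings and filters, and each mouse left out. Those added after the data were seen left out mice 14 and 16, kept only genes with a coding transcript, or also removed a trend on transcript length from these (lowess span 0.3, GENCODE lengths on GRCm38). Near-identical genes were found with BLAST 2.17.0 (at least 95% identity over 150 bases).

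The members, lists and motifs were chosen with earlier results of these data known. Named with values in every mouse were Ndufb8, the core subunits, Ndufa4 and Ndufa4l2, the member with the lowest unadjusted p in each direction of each comparison, members whose groups did not overlap, and the lowest and highest member of each class. Values of 1 member are not reported here, though it is counted among the 45. Other genes named in single sentences were chosen after their values were seen. Labels mark the mice as separate animals, and no further replicate structure is given.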

Additional observations from a re-analysis of the deposited data

Results flagged for a closer look

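Dixon's test was run on 124 sets of 5 values, 1 for each group of the named members and class scores, and it marks about 1 in 20 such sets by chance. It marked 10. In 4 of them mouse 14 was the highest Sirt2-/- mouse, namely Ndufs7 at 138 FPKM with the next mouse at 87.7, Ndufv1 at 111 with the next at 76.6, Ndufv2 at 59.8 with the next at 45.5, and Ndufb9 at 244 with the next at 166. Mouse 15 of the same group was the lowest for Ndufs5, at 40.8 FPKM below 58.3, and for the score of the 4 Ndufs and Ndufv accessory subunits, at -0.76 below -0.24 on the log2 scale. Control mouse 5 was the highest Control mouse for Ndufv2, at 54.5 FPKM above 46.4, and for Ndufb2, at 23.1 above 16.2. CE mouse 8 was the highest CE mouse for Ndufaf3, at 7.29 FPKM above 5.81, and mouse 17 the lowest Sirt2-/-/CE mouse for Ndufa4l2, at 0.51 FPKM below 1.1. Mouse 16, although the highest of 20 mice in 35 members, was marked in none of these sets. In many of them, such as Ndufb8, mouse 20 stood between it and the rest of its group. This was not so in all, since for Ndufa3 mouse 19, at 40.6 FPKM, was the next below mouse 16, at 55.1 FPKM.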

How the results depend on the processing

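No member passed an adjusted p of 0.05 under any alternative run, with edgeR, DESeq2, limma voom or limma on log2 FPKM, so the limits concern the counts at an unadjusted p under 0.05 and the signs of small values. In CE against Control that count was 0 without a filter on low counts, with limma voom and with coding genes only, 2 without mice 14 and 16, and 0 to 1 with 1 mouse left out, being 0 without any of Control mice 3, 4 and 5 and CE mice 6 to 10. In Sirt2-/- against Control it was 0 with limma on log2 FPKM, 15 with limma voom, 9 with only the 2 groups in the fit, 15 without mice 14 and 16, 9 with the length trend removed, and 0 to 3 with 1 mouse left out. Between Sirt2-/- and Sirt2-/-/CE it was 11 with limma on log2 FPKM, 4 with limma voom, 5 with only the 2 groups, 6 without mice 14 and 16, 13 with the length trend removed, and 3 to 28 with 1 mouse left out. In Sirt2-/-/CE against CE it was 1 with upper-quartile scaling, 12 with library size only, 7 with limma on log2 FPKM, and 0 to 7 with 1 mouse left out. For the interaction it was 6 with limma on log2 FPKM, 3 with limma voom, 3 without mice 14 and 16, and 2 to 20 with 1 mouse left out. The share of all genes at that p moved between fits too. Without mice 14 and 16, 7.76% were lower in Sirt2-/- against Control, 2.47% higher in Sirt2-/-/CE against Sirt2-/- and 3.99% positive in the interaction. In Sirt2-/- against Control limma voom called 906 of all genes at an adjusted p under 0.05 and edgeR 139. For the other tools, scalings, filters and the fit of 2 groups, shares at an unadjusted p were not computed. Medians over the members, in the same order of comparisons, ran from -0.13 to -0.03, -0.27 to -0.12, 0.18 to 0.46, 0.04 to 0.33 and 0.23 to 0.52 with 1 mouse left out. Other settings gave medians further from those reported, namely -0.05 with limma on log2 FPKM in Sirt2-/- against Control, where 28 of 45 members were lower, 0.14 with limma voom in Sirt2-/-/CE against Sirt2-/-, 0.21 with limma voom and 0.17 with the length trend removed in the interaction, and -0.03 with limma voom in Sirt2-/-/CE against CE. Of single values in Sirt2-/-/CE against Sirt2-/-, Ndufs7 was at -0.03 with library size only, -0.05 with limma on log2 FPKM, -0.03 with limma voom, -0.01 without mice 14 and 16, -0.14 with the length trend removed, and -0.21 to 0.26 with 1 mouse left out. Against CE in the same way, Ndufb8 in Sirt2-/-/CE was at -0.01 with limma voom, and Ndufaf6 at -0.25 to 0.04 with 1 mouse left out. The cause of these moves was not tested. With scaling by library size alone the median of all genes was 0.16 rather than 0.02 in Sirt2-/- against Control, where 15 of 45 members were then higher and the members' median lay at -0.21 relative to it, and 0.11 rather than 0.02 in Sirt2-/-/CE against CE. No paired analysis was possible because the replicate numbers run from 1 to 20 and the groups share none. Depth limited precision most for Ndufa4l2, which had the fewest counts of the members, 22 to 84 per library.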
